A study of Mus musculus with 11 samples.

Results

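Cytosolic ribosomal protein genes encode the proteins of the small (40S) and large (60S) subunits of the ribosome, the machine that makes protein in every cell. They were collected by symbol, as Rpl or Rps names with a number, together with Rplp0, Rplp1, Rplp2 and Rpsa. Only names with -ps, for pseudogenes, were left out, so copies under other names may remain. The count table of cultured cells listed 88 of them among 48440 genes, 36 of the 40S and 52 of the 60S subunit, on 19 chromosomes. The single-cell feature list held 83 of them among 32285 genes. Rps12l1, Rpl6l, Rps3a2, Rps4l and Rps3a3 were listed in the count table and not among the single-cell features.

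The samples were from mouse embryos at E14.5, either wild type (WT) or labelled as a conditional knockout (cKO) of Syncrip, an RNA-binding protein. Per the study's methods, cKO mice on a C57BL/6 background were Syncrip fl/fl with Emx1-Cre, which acts in the dorsal neocortex and not in the ganglionic eminence (GE), and the loxP sites flank exons 2, 3 and 4 of Syncrip. RNA-seq covered cultured neural progenitor cells (NPCs), as 3 cultures labelled WT and 3 labelled cKO. Per the methods, NPCs came from around the lateral ventricle and were grown in medium with EGF, bFGF and B27. The methods give 3 passages for other assays of such cultures and no passage number for RNA-seq. Single-cell RNA-seq by 3′ tags covered the dorsal cortex of 1 WT and 1 cKO embryo of the same pregnant mouse, so differences between these embryos have no replicate check. The label of the cultures states the genotype and no Cre line. LACE-seq samples of the same series were not analysed here.

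Most ribosomal protein genes are expressed together and in large amounts, since each ribosome needs most of its proteins in equal number. Many of their messages start with a C followed by a run of pyrimidines, the 5′ terminal oligopyrimidine (TOP) tract, through which mTOR and Larp1 control their translation. In the developing cortex, dividing apical progenitors (APs) line the ventricle and give rise to intermediate progenitors and to neurons, and fast-growing cells need many ribosomes. Some ribosomal protein genes have a close copy, such as Rpl22l1 beside Rpl22 and Rps27l beside Rps27, whose product can take the same place in the ribosome.

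Start-site sequences are shown first, since the TOP tract is what this gene family is known for. RefSeq promoters on GRCm38.p6 were matched by symbol for 63 of the 88 genes, and the other 25 had no entry. A tract was taken as a C followed by at least 4 bases that are each C or T, on the gene's own strand. The base at the annotated start was such a C in 13 of these genes (20.63%), against 3.01% of 27025 genes, and the pyrimidine run may already begin before it. Within 5 bases of the start, which allows for an imprecise annotation, a tract was found in 29 of the 63 (46.03%) and in 21.16% of all genes. The 6 genes printed here gave the extreme values in the comparisons that follow. Rps27l and Rpl22l1 were the most enriched in AP-like over immature-neuron-like cells, and Rps7 and Rpl38 the least. Rpl22l1 also had the largest difference between the cultures, Rps6 was among the 8 largest rises, and Rpl15 had the only nominally lower value. Each run holds 12 bases before the annotated start and the first 18 bases of the first exon. Capitals mark the longest tract that begins within 5 bases of the start.

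Rps27l: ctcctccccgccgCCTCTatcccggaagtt

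Rpl22l1: cggcgcaagcccgttCTCTTCCCacggctg

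Rps7: tccggtttccacccacctacttccgctgtc

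Rpl38: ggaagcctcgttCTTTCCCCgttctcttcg

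Rps6: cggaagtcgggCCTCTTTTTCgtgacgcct

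Rpl15: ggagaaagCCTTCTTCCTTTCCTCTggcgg

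They lie at chr9:66946074-66946103 on the plus strand (Rps27l, 1 of 2 annotated starts), chr3:28805496-28805525 plus (Rpl22l1), chr12:28635936-28635965 minus (Rps7), chr11:114668568-114668597 plus (Rpl38), chr4:86857350-86857379 minus (Rps6) and chr14:18270969-18270998 minus (Rpl15). The window of Rps7 held no tract under this definition, which says only that these letters are absent from it. Rpl15 had the longest run of these 6. The run of Rpl38 began at the annotated start, while those of Rps6 and Rpl15 began before it and spanned it.

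In the single-cell data, ribosomal protein transcripts took 11.4% of the UMIs (unique transcript molecules) of the WT embryo and 12.1% of those of the cKO embryo. After filtering, 8214 WT and 9559 cKO cells remained, with medians of 11705 and 11016 UMIs, and 22 cell barcodes occurred in both libraries. Y-linked genes had 22062 UMIs in the WT and 211 in the cKO embryo. Of the 83 genes, 80 had at least 200 UMIs, while Rpl39l had 23, Rpl3l had 5 and Rpl10l had 0. Rpl3l is known as a copy of Rpl3 in muscle, and Rpl10l and Rpl39l as copies used in the testis. Syncrip itself was at 315 CPM (counts, here UMIs, scaled to a total of 1000000) in WT and 323 in cKO AP-like cells. Its 3′ tags were not assigned to exons here, so these values do not check the deletion.

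Among the named neural classes, the share of ribosomal protein UMIs was highest in AP-like and lowest in GE-like cells in both embryos. Migrating-neuron-like and immature-neuron-like cells changed places between the embryos. Clusters were named from marker genes, and shares are the class's ribosomal protein UMIs over all its UMIs, with exact 95% intervals that cover counting error only. AP-like cells had 14.2% in WT (14.22% to 14.25%, 965 cells) and 14.502% in cKO (14.49% to 14.52%, 1322 cells). Intermediate-progenitor-like cells had 13.8% and 14.2%. Migrating-neuron-like cells had 11.1% and 11.4%, and immature-neuron-like cells 10.6% in WT (2675 cells) and 11.6% in cKO (2744 cells). GE-like cells were lowest of the neural classes, at 9.10% in both embryos (1190 and 1642 cells). Summed over classes, both cortical progenitor classes stood above both neuron classes. Single clusters overlapped, with a migrating-neuron-like cluster at 12.4% in WT and intermediate-progenitor-like clusters of cycling or deeply read cells at 10.96% to 12.1%. The quartiles of single WT cells were 12.4% to 18.0% in AP-like and 8.98% to 12.6% in immature-neuron-like cells.

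Cells outside the neural lineages reached both ends of the range, from few cells each. Microglia-like cells had 17.4% in WT and 15.7% in cKO, from 17 and 16 cells. Pericyte-like, endothelial-like and meningeal-fibroblast-like cells lay between 13.8% and 16.3% in either embryo. Cajal-Retzius-like cells, the early neurons of the outermost layer, had 10.1% and 10.98%. Red-blood-cell-like cells had 3.85% in both, beside their globin messages. The ratio of 60S to 40S UMIs stayed between 1.21 and 1.32 over these 11 classes, so both subunits moved together.

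Within classes, clusters of few UMIs stood apart. An AP-like cluster with a median of 2631 UMIs in WT had shares of 22.8% and 24.5%, and an immature-neuron-like cluster of 4866 UMIs had 18.7% and 20.8%. The latter rested on 3 raised markers. An AP-like cluster led by mitotic genes such as Aurkb and Plk1, with a median of 17669 UMIs in WT, had 12.6% and 12.9%. The AP-like cluster led by Hes5 and Aldoc, with a median of 12455 UMIs in WT, had 14.9% in both embryos. The AP-like cluster of few UMIs had Pbk and histone genes such as Hist1h1b among its leading genes. A lower share was thus not common to all AP-like clusters with cell cycle genes. One unnamed cluster of 475 WT and 613 cKO cells, with a median of 1215 UMIs in WT, had shares of 4.35% and 5.62%. Another unnamed cluster, with markers of more than one vascular or immune class and a median of 1692 UMIs in WT, had 20.9% and 19.5%. The part of UMI depth in these shares was not tested.

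**Figure D1:**
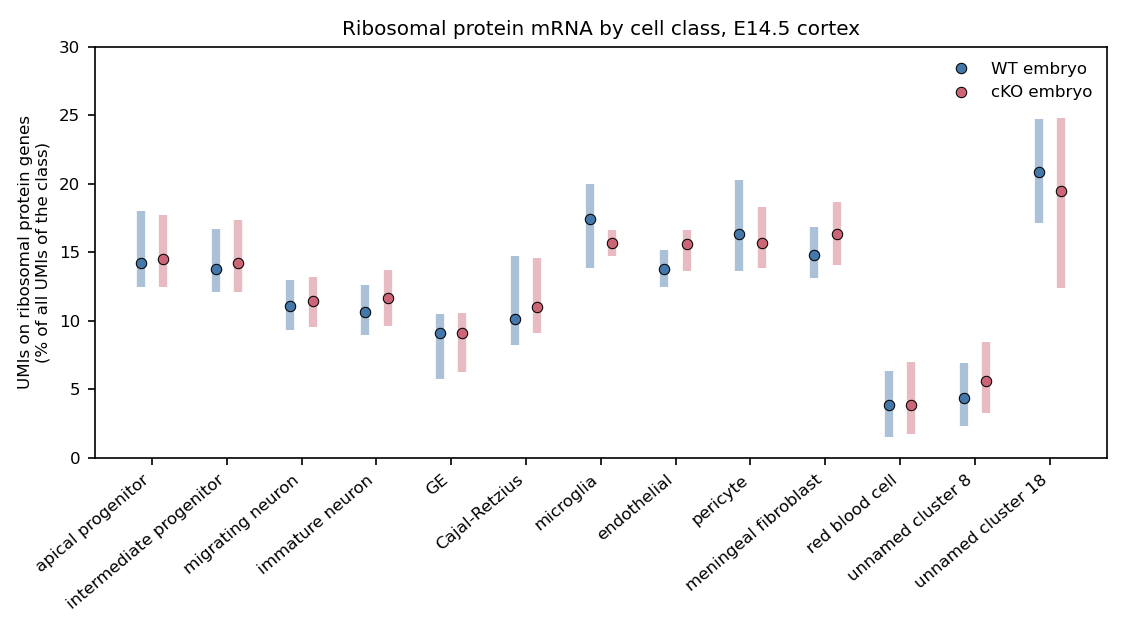
Share of ribosomal protein UMIs (y axis, percent of all UMIs) by cell class (x axis) in the WT and the cKO embryo. Points are the summed share of each class and bars the interquartile range over its cells; AP-like cells lie at 14.2% and 14.502%, GE-like cells at 9.10%, and red-blood-cell-like cells at 3.85%.

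Gene by gene, levels were high and their spread wide within every class. In WT AP-like cells the 80 genes ran from 131 CPM for Rpl7l1, a copy of Rpl7, over a median of 1802 CPM to 3601 CPM for Rpl13 of the 60S subunit. In WT GE-like cells the median was 1145 CPM, with Rpl7l1 at 77.9 CPM and Rpl13 at 2290 CPM. Rpl7l1 was the lowest of the 80 in all 22 combinations of class and embryo. Its level followed those of the others least, with a Pearson r of 0.68 between its log2 CPM and the mean of the other genes over these 22 points. Rpl38 had r = 0.82, Rpl41 0.83, Rplp1 had 0.86 and Rps27l 0.87. These are descriptions over points that share libraries.

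Nearly every ribosomal protein gene was higher in AP-like than in immature-neuron-like cells, but by a modest amount. Of the 80 genes, 78 were higher in the WT embryo and 75 in the cKO embryo. Over all genes with enough UMIs, 6581 of 11303 and 6839 of 11590 were. The log2 ratio of summed shares was 0.42 in WT (95% counting interval 0.417 to 0.422) and 0.32 in cKO (0.316 to 0.320). The median of single genes was 0.44 in WT and 0.33 in cKO, beside 0.17 and 0.18 over all genes with enough UMIs. Past 1.5-fold there were 18 of 80 in WT, where 30.4% of 11303 genes were past it, and 10 in cKO, where 31.0% of 11590 were. None was past 1.5-fold lower, against 22.3% of all genes in WT and 21.2% in cKO. The 40S genes had a WT median of 0.46 and the 60S genes 0.39. There is 1 embryo of each genotype, so no test across embryos was run, and genes are not replicates.

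Rps27l, Rpl22l1, Rplp1, Rpl14 and Rpsa led this order. Rps27l, a copy of Rps27 that is known as a target of p53, was at 341 CPM in AP-like and 125 CPM in immature-neuron-like cells of the WT embryo, and at 337 and 134 CPM in cKO. That is a log2 ratio of 1.45 (1.39 to 1.51) in WT and 1.33 in cKO. Rpl22l1, the copy of Rpl22, was at 627 and 313 CPM in WT, with log2 ratios of 1.004 in WT and 0.85 in cKO. Rplp1, an acidic protein of the ribosomal stalk that recruits elongation factors, was at 2098 and 1153 CPM, a log2 ratio of 0.86. Rpl14 of the 60S subunit had 0.86 and Rpsa, the 40S protein also known as the laminin receptor, 0.83. In the cKO embryo these ratios were 0.77, 0.79 and 0.79.

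At the other end, a few genes were as high or higher in neurons. Rps7, a 40S protein, was at 2182 CPM in AP-like and 2409 CPM in immature-neuron-like cells of the WT embryo, log2 ratios of −0.14 in WT and −0.23 in cKO. Rpl38, known from the mouse Tail-short mutant for its part in body patterning, was at 1377 and 1470 CPM, log2 ratios of −0.09 and −0.15. Rpl10, Rpl34 and Rpl37 were at 0.03, 0.04 and 0.08 in WT and at −0.05, −0.09 and −0.01 in cKO. The ranking of the 80 genes was alike in both embryos, with a Spearman rho of 0.99 over genes.

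The copies also shifted against their partners between classes. The ratio of Rpl22l1 to Rpl22 CPM was 0.72 and 0.70 in AP-like cells of WT and cKO. It was 0.46 and 0.39 in intermediate-progenitor-like cells, 0.59 and 0.60 in immature-neuron-like cells, and 0.40 and 0.41 in GE-like cells. Cajal-Retzius-like cells had as much Rpl22l1 as Rpl22 or more, with ratios of 1.30 and 1.002 from 63 and 111 cells. The ratio of Rps27l to Rps27 was 0.27 in AP-like cells of both embryos and 0.12 in immature-neuron-like cells of both. Reads of near-identical copies may be split between them.

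**Figure D2:**
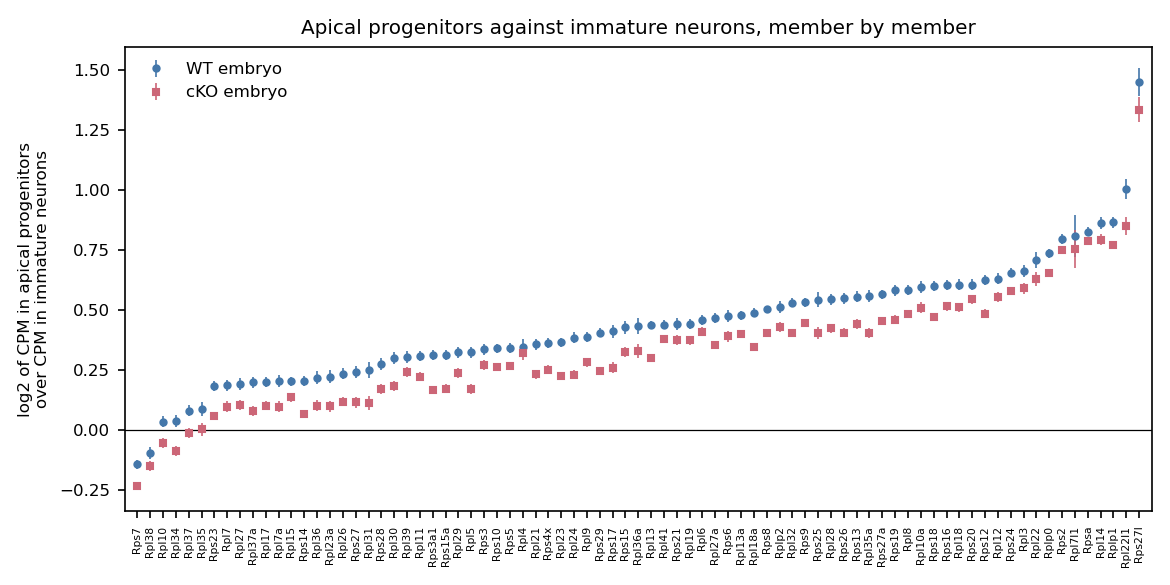
Log2 ratio of AP-like over immature-neuron-like CPM for 79 of the 80 genes, in the WT and the cKO embryo, with 95% counting intervals. Rps27l (1.45 in WT) and Rpl22l1 (1.004) lie at the upper end, and Rps7 (−0.14) and Rpl38 (−0.09) at the lower end.

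Lists of other growth genes had medians above and below that of the ribosomal proteins (0.44) between the same classes. Ribosome biogenesis factors, which build the subunits in the nucleolus, had a median log2 ratio of 0.60 over 97 genes in WT, with 49 past 1.5-fold higher and none lower. Genes of RNA polymerase I, which transcribes ribosomal RNA, had 0.46 over 19 genes, and mitochondrial ribosomal proteins 0.42 over 78. Other TOP messages, such as elongation factors, had 0.22 over 28 genes, and the Myc family −0.39 over 11. Regulators of TOP messages had 0.24 over 21 genes, translation initiation factors 0.40 over 38 and the p53 list 0.09 over 12. These values are from the WT embryo. The medians in the cKO embryo were, in the same order, 0.55, 0.45, 0.48, 0.17, −0.44, 0.23, 0.33 and 0.15.

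In the NPC cultures, the deletion itself could not be seen in the counts. Syncrip was at 77.9, 79.8 and 79.9 CPM in WT and at 90.3, 88.7 and 81.5 CPM in the cultures labelled cKO, a log2 fold change of 0.13 ± 0.075 (SE; edgeR adjusted p = 0.18). Whole-gene counts include exons outside the floxed ones, so this checks the label poorly, and each direction given below is between labels. Totals ran from 16962900 to 22708400 counts per culture. Counts of Y-linked genes were between 5903 and 9232 in the first WT, second WT and first cKO culture, and 0 or 1 elsewhere. Nothing in the labels says whether the cultures came from separate embryos, so p-values measure only the spread between these samples.

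Several ribosomal protein genes could not be measured in the cultures. Of the 88, 77 had enough counts to be tested. Rpl13, Rpl24, Rpl35, Rpl35a, Rpl7l1, Rpl10l, Rpl39l, Rps12l1, Rps3a3 and Rps4l were listed at 0 counts in all cultures. Other listed genes together cover 100% of Rpl13 (among them Gm20388, same strand), Rpl35 (among them Wdr38, opposite strand), Rpl35a and Rpl7l1, and 98.7% of Rpl24. In WT AP-like cells several of these genes were abundant, at 3601 CPM for Rpl13, 1830 CPM for Rpl24, 1317 CPM for Rpl35a and 1008 CPM for Rpl35. Rpl13a, of which other genes, among them Flt3l, cover 88.6%, was among the lowest in the cultures and at 2410 CPM in WT AP-like cells. Levels of covered genes in the cultures are therefore uncertain.

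Part of the ribosomal protein genes rose in the cultures labelled cKO, by small amounts. Of 77 genes, 29 (37.7%) were higher at an adjusted p under 0.05, where 19.7% of all 14432 genes were. None was lower in edgeR's test, where 19.8% of all genes were. At an unadjusted p under 0.05 there was 1 lower gene (Rpl15), DESeq2 called 30 higher and none lower, and limma-voom 29 and none. The median log2 fold change of the 77 was 0.26 (quartiles 0.13 and 0.36), beside 0.00 over all genes. There were 70 positive and 7 negative, beside 7242 and 7190 over all genes. Both subunits contributed, with 13 of 32 genes of the 40S (median 0.28) and 16 of 45 of the 60S (median 0.24). In 25 of 77 genes all cKO cultures lay above all WT cultures, beside 25.7% over all genes, and in none below, beside 24.7%.

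These counts lean on single cultures. Without cKO replicate 3, 13 genes (16.9%) were called higher, beside 14.0% of all genes, and without cKO replicate 1 18 genes (23.4%) beside 14.4%. Without WT replicate 3 the count was 21 (27.3%) beside 17.7% of all genes. With a term for the presence of Y-linked counts it was 40 (51.9%) beside 19.8%.

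As a share of all counts, the 88 genes took 1.61%, 1.75% and 1.43% in WT and 1.99%, 1.76% and 2.09% in cKO. The means were 1.60% ± 0.16 and 1.95% ± 0.17 (SD, n = 3), and the lowest cKO culture lay just above the highest WT culture. The difference of 0.345 percentage points had a two-sided exact permutation p = 0.1, the smallest that 3 against 3 cultures allow. With the highest and lowest 1% of the other expressed genes left out of the total, cKO replicate 2 (2.290%) lay below WT replicate 2 (2.301%), and p was 0.2.

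**Figure D3:**
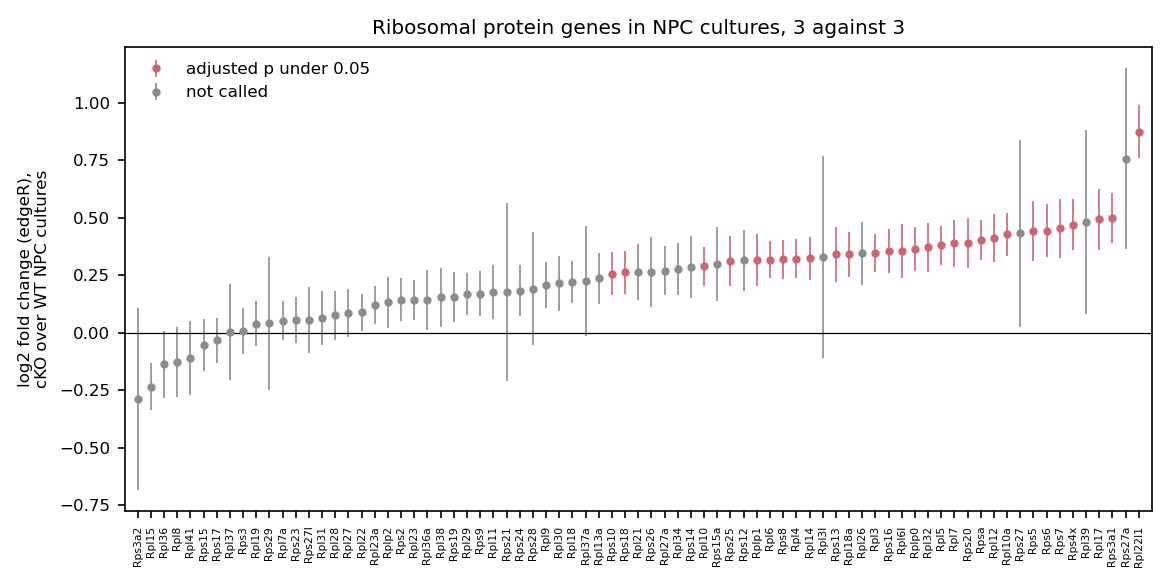
Log2 fold change of cKO over WT NPC cultures for each of the 77 tested genes, with its SE, ordered by size and marked by the test at an adjusted p of 0.05. Of the 77, 70 lie above 0, and the 29 called genes run from 0.26 to 0.87.

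Rpl22l1 stood out with the largest rise of the called genes. It lies at chr3:28805436-28807424 on the plus strand of mm10. Its CPM was 19.8, 19.0 and 15.7 in WT and 31.4, 31.1 and 37.1 in cKO, and the groups did not overlap. The log2 fold change was 0.87 ± 0.12 (SE; edgeR adjusted p = 5.3e-05), and it was called under all 19 alternatives. Its partner Rpl22 was at 217, 242 and 209 CPM in WT and at 242, 226 and 241 CPM in cKO, groups that overlapped (log2 fold change 0.09, adjusted p = 0.41). The ratio of Rpl22l1 to Rpl22 was accordingly 0.091, 0.079 and 0.075 in WT and 0.130, 0.137 and 0.154 in cKO. Rpl22 is known to hold back expression of Rpl22l1.

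The next largest rises were in 40S and 60S genes of high level. Rps3a1, a protein of the 40S subunit, was at 501, 464 and 372 CPM in WT and 662, 563 and 664 in cKO (log2 fold change 0.50 ± 0.11, adjusted p = 0.0026). Rps6, the classical substrate of the S6 kinases downstream of mTOR, was at 294, 281 and 231 CPM in WT and 405, 301 and 391 in cKO (0.44, adjusted p = 0.0079). In both genes cKO replicate 2 was the cKO culture closest to WT. Rpsa was at 493, 500 and 414 CPM in WT and 608, 617 and 636 in cKO, well apart (0.40, adjusted p = 0.0026). Rpl17, Rpl10a and Rpl12 of the 60S subunit rose by log2 values of 0.49, 0.43 and 0.41, without overlap of the groups.

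Genes of the ribosomal stalk and of the 5S particle split. Rplp0, which anchors the stalk, was at 731, 780 and 634 CPM in WT and 936, 851 and 976 in cKO (0.37, adjusted p = 0.0076). Its call was lost without cKO replicate 3 (0.32, adjusted p = 0.054). Rplp1 rose by 0.32 on the log2 scale (adjusted p = 0.037), a call lost in 7 of 19 alternatives. It had 0.19 without WT replicate 3, 0.24 without cKO replicate 3, 0.31 without cKO replicate 1 and 0.37 without WT replicate 2 (adjusted p = 0.13, 0.18, 0.093 and 0.058). Rplp2 had 0.13 (adjusted p = 0.37) with overlapping groups. Rpl5 and Rpl11 bind the 5S ribosomal RNA and, when free, the p53 inhibitor Mdm2. Rpl5 was at 387, 394 and 341 CPM in WT and 500, 458 and 504 in cKO (0.38, adjusted p = 0.0029). Rpl11 was at 148, 212 and 164 CPM in WT and 177, 201 and 215 in cKO, with overlap (0.18, adjusted p = 0.24), and was called without WT replicate 2 (0.33, adjusted p = 0.030). Whether these pairs differ from each other was not tested.

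Genes that went the other way were few. Rpl15 was at 236, 315 and 253 CPM in WT and 214, 236 and 233 in cKO, a log2 fold change of −0.23 (adjusted p = 0.081), with WT replicate 1 inside the cKO range. It was called lower without WT replicate 1 (−0.32, adjusted p = 0.0068). Rpl41, one of the shortest proteins known, had −0.11 (adjusted p = 0.62). Rps27a, a ubiquitin fusion, had 0.76 but spread widely, at 187, 71.7 and 145 CPM in WT and 248, 189 and 247 in cKO (adjusted p = 0.21).

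The 4 X-linked genes are of note because Y-linked counts differed between cultures of the same label. Rps4x was at 425, 386 and 306 CPM in WT and 541, 461 and 546 in cKO (log2 fold change 0.47, adjusted p = 0.0047). Rpl10 rose by 0.29 (adjusted p = 0.015), a call lost without WT replicate 3 (0.22), cKO replicate 1 (0.26) or cKO replicate 3 (0.27), with adjusted p = 0.055, 0.067 and 0.071. Rpl39 had 0.48 with overlap (adjusted p = 0.41) and Rpl36a 0.14 (adjusted p = 0.40). Of the 20 tested genes with transcripts of at most 526 bases, 3 were called higher, beside 19.7% of all genes. Per kilobase of transcript, Rplp1 was highest in WT at 683 CPM, then Rpl41 (549), Rps14 (534), Rplp0 (526) and Rpl22 (469). Neighbours in this order are close together, and Rpl3l, Rps3a2, Rpl13a, Rpl6l and Rpl22l1 were the lowest. The order depends on the transcript taken for each gene, which for Rpl22 was 474 bases long.

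**Figure D4:**
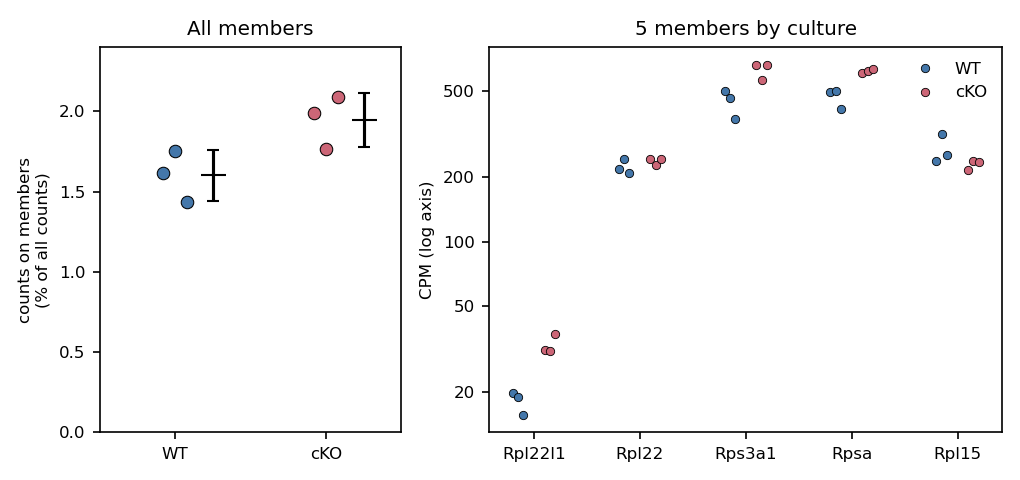
Left, share of counts on the 88 genes (percent) in each of the 3 WT and 3 cKO NPC cultures, with the mean and SD; right, CPM (log axis) of 5 genes in each culture. Rpl22l1 lies at 15.7 to 19.8 CPM in WT and 31.1 to 37.1 CPM in cKO, while Rpl22 and Rpl15 overlap between the groups.

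The readouts were also set out by a TOP tract within 5 bases of the start, with no test of a difference. With a tract, 6 of 27 tested genes were higher in the cultures (median log2 fold change 0.22), and without one, 13 of 29 (median 0.31), beside 19.7% of all genes. The median log2 ratio of AP-like over immature-neuron-like cells in WT was 0.47 with a tract and 0.39 without. RNA levels do not measure translation, and no translation data were analysed here.

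Among related genes in the cultures, TOP messages of other genes were set beside the ribosomal proteins. Over all genes 19.7% rose and 19.8% fell, against which the list counts are to be read. In this list 16 of 27 rose and none fell (median log2 fold change 0.26). Gas5, a snoRNA host gene, went from a mean of 76.3 to 129 CPM (0.76), the elongation factor Eef1a1 from 4301 to 6234 CPM (0.54), and Rack1, a scaffold on the 40S subunit, from 425 to 594 CPM (0.48). Npm1, a nucleolar chaperone that is also in the biogenesis list, had 0.42. Of ribosome biogenesis factors 35 of 92 rose and 7 fell (median 0.18), and those with the smallest adjusted p were the nucleolar GTPase Gnl3 (0.74), Noc2l (0.46), Las1l (0.59) and Rrp1b (0.55). Of RNA polymerase I genes 7 of 19 rose and 2 fell, and of translation initiation factors 7 of 35 rose and 2 fell (medians 0.12 and 0.02). Regulators of TOP messages were even, with 6 up and 6 down of 22. Of mitochondrial ribosomal proteins 6 of 71 rose and 9 fell (median −0.12). Mrps12 (−0.79), Mrpl34 (−0.64) and Mrpl51 (−0.69) fell, while Mrpl1 rose (0.48).

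Most of the p53 list and some of the Myc family fell in the same cultures. In the Myc family, whose activators drive ribosome production, 4 of 11 fell and none rose (median −0.18). Mycn was at 8.65, 10.1 and 17.5 CPM in WT and 1.91, 1.17 and 1.74 in cKO (−2.90), and Myc fell from a mean of 77.0 to 54.3 CPM (−0.50). Among p53 targets and regulators tied to ribosomal stress, 12 of 18 fell and 3 rose (median −0.43). Cdkn1a, the cell cycle inhibitor p21, was at 81.4, 98.6 and 118 CPM in WT and 28.4, 32.0 and 35.6 in cKO (−1.63). Ccng1, Phlda3 and Eda2r, further p53 targets, had −0.87, −1.26 and −0.71.

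Markers of cell types differed between the cultures as well. The summed CPM of 11 migrating-neuron markers was 388 to 460 in WT and 227 to 239 in cKO. Of the 7 that were tested, 6 fell, with Neurod1 and Sstr2 at 0 in all cultures. Astrocyte markers summed to 4007 to 4430 CPM in WT and 2439 to 2751 in cKO, with 4 of 5 lower and Gfap at 0. AP markers summed to 7318 to 8852 CPM in WT and 7503 to 8379 in cKO, which overlap, though 5 of 13 tested rose (Hes1 by 2.84 and Nes by 0.92 on the log2 scale) and 6 fell (Aldoc by 0.89, Pax6 by 0.33). Immature-neuron markers summed to 484 to 498 CPM in WT and 574 to 590 in cKO, mostly from Tle4 and Sox5, with 3 of 10 tested higher and 3 lower (Neurod6 at −4.14, Neurod2 at −2.24, Bcl11b at −0.52). Sox2, a defining progenitor gene, was listed at 0 in all cultures. So were Rpl13, abundant in WT AP-like cells, and Xist, also in the cultures with 0 or 1 Y-linked counts. A listed 0, for Sox2 as for Neurod1, Sstr2 and Gfap, therefore does not show that the RNA was absent. Whether overlap with other genes lay behind these values was not tested. In bulk samples a change in the mix of cells and a change of RNA per cell cannot be told apart. The part of these markers in the ribosomal protein result was not tested.

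Between the embryos, ribosomal protein levels differed little in progenitors and migrating neurons and more in immature neurons. The log2 ratio of summed shares, cKO over WT, was 0.027 in AP-like cells (counting interval 0.024 to 0.029). By the median share of single cells it was −0.021, the opposite sign. The ratio of summed shares was 0.046 in intermediate-progenitor-like and 0.041 in migrating-neuron-like cells. Of the 80 genes, 45, 51 and 50 were above 0 in these classes, in that order. Over all genes 5049 of 10410, 4572 of 9248 and 4998 of 10355 were. The migrating-neuron-like class was made up differently in the embryos. Its cluster of the lowest share held 125 WT and 455 cKO cells (8.79% and 9.86%), and its other clusters went from 10.3% to 11.1% and from 12.4% to 12.8%. In immature-neuron-like cells the ratio of summed shares was 0.128 (0.126 to 0.130), with a median of 0.13, beside −0.01 over 11495 genes. There 77 of 80 were above 0, beside 5286 of the 11495. GE-like cells, which lie outside the domain of Emx1-Cre, had −0.001 (−0.005 to 0.003) and 44 of 80 above 0, beside 5049 of 9784 over all genes. These intervals cover counting error in 1 embryo of each genotype and not the spread between embryos. In AP-like cells ribosome biogenesis factors had a median of −0.07, with 27 of 97 above 0, and other TOP messages −0.05, with 7 of 28 above 0.

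No ribosomal protein gene was past 1.2-fold in either direction in AP-like cells, where 8.15% of 10410 genes were past it upward and 5.75% downward. The same held in intermediate-progenitor-like (6.92% and 5.16% of all genes), migrating-neuron-like (8.77% and 5.9%) and GE-like cells (6.12% and 4.52%). In immature-neuron-like cells 7 of 80 were past it upward, beside 6.43% of 11495 genes, and none downward, beside 5.45%. Rplp1 (0.29), Rpl27 (0.27) and Rps15 (0.27) were among the 7. All 5 immature-neuron-like clusters had a higher share in cKO. So did every AP-like, intermediate-progenitor-like and migrating-neuron-like cluster, for example from 14.88% to 14.93% and from 12.6% to 12.9% in AP-like ones. GE-like clusters went both ways, for example from 7.58% to 7.81% and from 10.3% to 9.71%. The direction was therefore not particular to immature-neuron-like cells. In the 3 largest immature-neuron-like clusters the shares went from 10.0% to 11.2%, from 11.2% to 12.1% and from 10.4% to 11.6%.

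Rpl41, Rplp1, Rpl5 and Rpl10, near the ends of the genotype ratio in AP-like cells, had like values in GE-like cells. In AP-like cells Rpl41 went from 2249 to 2583 CPM (log2 ratio 0.20), Rplp1 from 2098 to 2402 CPM (0.19) and Rpl27 from 1233 to 1399 CPM (0.18). Rps20 and Rps15 had 0.17 and 0.16. Lower in cKO were Rpl5 (1581 to 1449 CPM, −0.13), Rpl7a (−0.12), Rpl10 (−0.12), Rpl3 (−0.10) and Rps3a1 (2112 to 1977 CPM, −0.10). In GE-like cells Rpl41 and Rplp1 both had 0.18, Rpl5 had −0.13 and Rpl10 −0.16. The highest value of a 40S gene there was 0.123, so Rps20 and Rps15 were lower than in AP-like cells. The ratio followed transcript length over the 80 genes, with a Spearman rho of −0.53 in AP-like, −0.57 in immature-neuron-like and −0.54 in GE-like cells, so shorter transcripts were relatively higher in the cKO library. Rps20 lies apart at 3706 bases because the annotation's principal transcript is a long one. In the cultures rho with length was 0.31 over 77 genes, the opposite sign. Genes share libraries and are not independent, and the part of library preparation was not tested.

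**Figure D5:**
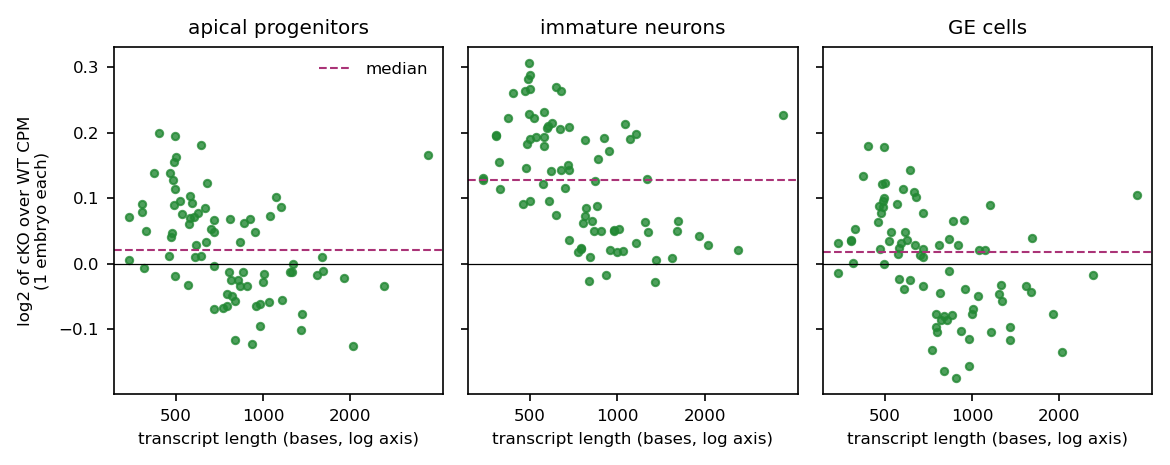
Log2 ratio of cKO over WT CPM for each of the 80 genes against transcript length (log axis, bases), in AP-like, immature-neuron-like and GE-like cells. Dashed lines are medians. Shorter transcripts lie higher in each class (Spearman rho −0.53, −0.57 and −0.54), and in immature-neuron-like cells 77 of 80 lie above 0.

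The genes called higher in the cultures were looked up in the embryos. Of the 28 genes called higher in the cultures and measured in single cells, 10 were above 0 in cKO over WT AP-like cells (median log2 ratio −0.01). Of the other 52 genes, 35 were above 0 (median 0.05), beside 5049 of 10410 over all genes. In immature-neuron-like cells it was 26 of 28 (median 0.06) and 51 of 52 (median 0.15), beside 5286 of 11495 over all genes. GE-like cells, outside the domain of Emx1-Cre, had 9 of 28 (median −0.05) and 35 of 52 (median 0.03), beside 5049 of 9784. Intermediate-progenitor-like cells had 12 of 28 and 39 of 52, and migrating-neuron-like cells 11 of 28 and 39 of 52. Over all genes these classes had 4572 of 9248 and 4998 of 10355. The split in AP-like cells was thus not particular to them. Rps3a1, with 0.50 in the cultures, had −0.10 in AP-like cells. Rpl22l1, with 0.87, had −0.03 (−0.07 to 0.01) in AP-like and 0.12 in immature-neuron-like cells. The X-linked Rps4x had −0.06 and Rpl10 −0.12 in AP-like cells, from embryos that differ in Y-linked UMIs. The cultures and the embryos differ in growth in medium and in assay. These differences cannot be told apart from genotype effects that act in only one of them.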

How the data were processed

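RNA-seq of 6 NPC cultures and single-cell RNA-seq of 2 embryos were analysed. The authors deposited raw read counts per gene, from paired reads aligned to mm10 with HISAT2. For the program that counted them, its annotation and strand setting, and how it treated overlapping genes or multi-mapped reads, the answer is not given in the sources used here. They also deposited UMI counts per gene and barcode, written by Cell Ranger (7.0.0 in the matrix header), for which the intron setting is not given.

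Cultures were compared in R 4.3.3 with edgeR 4.0.16 (filterByExpr, TMM, robust quasi-likelihood test, Benjamini-Hochberg adjustment over 14432 genes, threshold 0.05). CPM are counts scaled to a total of 1000000 after TMM scaling, and standard errors were taken from the F statistic. DESeq2 1.42.0 and limma 3.58.1 were alternatives. The test was checked on simulated data. Replicate numbers did not pair the cultures.

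Cells with 200 or more genes and no more than 10% of UMIs from mitochondrial genes were clustered without integration in Seurat 5.3.0 (2000 variable genes, 30 components, 20 neighbours, resolution 0.8) and named from marker lists, with at least 3 markers raised 1.5-fold. Doublets were called in scanpy 1.11.5 (3.75% of WT and 4.98% of cKO cells) and removed only as an alternative. UMIs were summed per class and embryo. Ratios used genes with at least 200 UMIs over the compared sums, and their intervals are exact 95% intervals for counting error only.

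Transcript lengths came from GENCODE M21, matched by chromosome, start and end for 87.0% of genes. The transcript of each gene was taken by principal rank, then support level, then the shortest length. Overlaps of genes used the coordinates deposited with the counts. Promoters came from RefSeq on GRCm38.p6.

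Genes were named by rule. In the cultures these were the 8 largest called rises and falls without overlap, the 5 highest and lowest per length, X-linked genes, genes with a close copy, the stalk proteins, Rpsa, Rpl5 and Rpl11. In single cells they were the 5 highest and lowest ratios between AP-like and immature-neuron-like cells and between embryos in AP-like cells, and those least like the rest. Up to 4 genes per list were named. Rps27a, Rps7 and Rpl15 in the cultures and all genes set across both experiments were picked after their values were seen. The members and lists were chosen with earlier results of these data known. One gene is counted among the members but not reported here by name.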

Additional observations from a re-analysis of the deposited data

How the results depend on the processing

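Leaving out 1 culture moved the number of ribosomal protein genes called higher from 29 to between 13, when cKO replicate 3 was dropped, and 39, when cKO replicate 2 was. All other settings gave 28 to 40. The higher counts came with a sex term (40), with length and GC trends removed (38), without a count filter (37) and with length alone removed (36). One gene, Rpl15, was called lower without a count filter (−0.25), under the replicate block (−0.22) and without WT replicate 1, so the count of lower genes was 1 there and 0 to 1 over left-out cultures. Deviations of same-numbered cultures correlated at 0.39, 0.13 and −0.16, so the numbers were not taken as pairs, and the replicate block gave 28 higher and 1 lower. Of 27 named genes, 484 alternative values kept their call, 17 (5 genes) lost it, and 10 (6 genes) gained one. No called gene changed direction, while the uncalled Rpl36a, Rpl41, Rps27l and Rps3a2 changed sign in some settings.

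The median of ribosome biogenesis factors fell to 0.14 with GC (0.142) or length and GC (0.139) trends removed and to 0.148 without WT replicate 3 and cKO replicate 2. That of RNA polymerase I genes was 0.173 with a sex term, 0.067 without those 2 cultures and 0.043 to 0.125 over single cultures left out. TOP regulators ran from 0.020 to 0.051 over single cultures left out and to 0.059 over all settings. The p53 list moved to −0.382 at a filter of 5 CPM, −0.361 with GC and −0.363 with length and GC trends removed.

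AP-like over immature-neuron-like cells in WT gave 0.394 and 0.462 at resolutions 0.4 and 1.2, 0.443 without called doublets, 0.427 at most 5% mitochondrial UMIs, 0.404 in cells of at least 5000 UMIs, 0.491 by the median cell and 0.412 without clusters of few UMIs. In cKO the values were 0.301, 0.355, 0.359, 0.306 (at least 5000 UMIs), 0.347 and 0.306 (without clusters of few UMIs), and 0.315 with sex and mitochondrial genes left out. The genotype ratio in AP-like cells was 0.036, 0.023, 0.042, 0.019 and 0.034 for the first 5 of these settings and reversed to −0.021 by the median cell. In immature-neuron-like cells it was 0.131 (resolution 1.2), 0.126 (doublets), 0.133 (at least 5000 UMIs), 0.123 (median cell) and 0.132 (without clusters of few UMIs). In GE-like cells it was −0.0055 in cells of at least 5000 UMIs and 0.030 by the median cell. The causes of these moves were not tested.

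Counting intervals of single genes were narrow in the large classes, but the spread between embryos was not measured. The GC settings, the pair of left-out cultures and the removal of clusters of few UMIs were chosen after seeing the data.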

Other observations

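Cultures of the same label differed in how ribosomal protein levels followed transcript length. Over the 77 tested genes, the deviation of each gene's log2 CPM from its group mean had a Spearman rho with transcript length of −0.04, −0.25 and 0.26 in WT replicates 1 to 3 and of −0.29, 0.47 and −0.60 in cKO replicates 1 to 3. The median deviation was −0.17 in WT replicate 3 and −0.16 in cKO replicate 2, against 0.15 in WT replicate 2 and 0.10 in cKO replicate 3. Removing both low cultures, an alternative added after seeing the data, left 28 genes higher, 23 of them shared with the 29.

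The copies Rps27l and Rps27 showed no such split between labels as Rpl22l1 and Rpl22 did. The ratio of Rps27l to Rps27 was 0.34, 0.45 and 0.50 in WT and 0.28, 0.41 and 0.30 in cKO, which overlap. Both members of that pair had overlapping levels between the cultures, with log2 fold changes of 0.06 for Rps27l and 0.43 for Rps27 (edgeR adjusted p = 0.78 and 0.47).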
